A study of Mus musculus with 11 samples.

Results

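The MHC class II genes and Ciita were followed as 8 genes, chosen by symbol from the 11366 genes of the deposited RPKM table (reads per kilobase of gene model, scaled by the library's total). They were the transactivator gene Ciita, the invariant chain gene Cd74, the chain genes H2-Ab1, H2-Aa and H2-Eb1, and the loading genes H2-DMb1, H2-DMb2 and H2-DMa. All 8 were measured in all 11 libraries and all 8 passed the filter on low values, which 10482 genes passed. Libraries were made from polyadenylated RNA of small-intestinal epithelial cells of wild-type mice (the sources used here give no strain, age or sex). The SFB group (n = 4) was fed standard chow and colonized with SFB, an abbreviation taken to mean segmented filamentous bacteria, commensals known to adhere to the epithelium of the ileum. The NFF group (n = 4) was fed a diet low in fermentable fiber, and the Control group (n = 3) standard chow, both without treatment. All groups shared the wild-type genotype and 1 sort gate, in which live cells carried EpCAM and lacked CD45, CD31 and CD44. Nothing in the labels states that the libraries are from different animals, and p-values therefore cover the spread among these samples alone, possibly a technical one.

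MHC class II molecules display peptides from the endosomal pathway to CD4 T cells. Their alpha and beta chains assemble in the endoplasmic reticulum around the invariant chain, encoded by Cd74, which blocks the peptide groove and carries the complex to endosomes. There the invariant chain is cut down and H2-DM, a heterodimer of H2-DMa with an H2-DMb chain, removes the last fragment so that antigenic peptide can bind. All of these genes are classical targets of CIITA, the class II transactivator encoded by Ciita. CIITA does not bind DNA itself but docks on RFX, CREB and NF-Y proteins assembled on the X and Y boxes of class II promoters. Intestinal epithelial cells are not professional antigen-presenting cells, and in them interferon gamma is a known inducer of the pathway.

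The promoter letters on which CIITA docks are shown for the chain and loading genes, because class II genes are known for sharing them. The RefSeq promoter table (build GRCm38.p6) held 5 of the 8 genes, with 2 starts for H2-DMa. The 250 bases before each start were searched for X box and Y box letters. X box letters were AG, AC and ATG in this order, each parted from the next by 2 free letters. Y box letters were ATTGG, the NF-Y core. The 5 genes were searched on the gene's strand alone, whereas the shares over all promoters count matches on either strand. Of 32851 promoters of the same length, 854 (2.6%) held the X letters and 11120 (33.85%) the Y letters. X followed by Y on the same strand within 40 bases, a distance chosen after the letters were seen, was found in 25 promoters (0.0761%) of 24 genes. Stretches of 90 bases of 4 promoters are given 5′ to 3′ on the gene's strand, with the matches to X and Y in capitals.
H2-DMb1 (chr17:34153060-34153149, plus strand): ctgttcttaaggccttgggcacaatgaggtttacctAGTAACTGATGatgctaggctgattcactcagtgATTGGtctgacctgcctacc
H2-DMb2 (chr17:34145089-34145178, plus strand): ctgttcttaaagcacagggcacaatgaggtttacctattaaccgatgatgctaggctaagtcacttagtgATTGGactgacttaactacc
H2-Eb1 (chr17:34305738-34305827, plus strand): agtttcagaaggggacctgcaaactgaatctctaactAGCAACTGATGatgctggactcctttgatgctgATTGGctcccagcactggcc
H2-Aa (chr17:34287852-34287941, minus strand): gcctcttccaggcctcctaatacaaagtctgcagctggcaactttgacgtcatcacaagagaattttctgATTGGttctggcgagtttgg

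Both sets of letters stood in the promoters of H2-DMb1, with X 95 and Y 61 bases before the start, and H2-Eb1, with X 92 and Y 59 bases before it. H2-DMb2 held the Y letters 90 bases before its start and no match to X. Its window was identical to that of H2-DMb1 at 77 of 90 bases. Counted from 1 at the 5′ end of the H2-DMb1 X letters, H2-DMb2 differed by G2T, at a letter the search fixes, and by T7C, at one it leaves free. H2-Aa held the Y letters 48 bases before its start without an exact X match, and H2-DMa held neither at its first start and Y 198 bases before its second. A match is a description of letters and not evidence of binding. A missing match says only that these letters were not on the gene's strand in the bases searched. A transcript of the GENCODE M21 annotation starts inside the H2-DMb1 window, upstream of the RefSeq start. The H2-DMb2 window lies inside the GENCODE span of its gene (34143307 to 34151555), downstream of where that span begins.

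All 9 epithelial markers were measured, with sums of 5740 to 7281 RPKM in SFB, 6497 to 6982 RPKM in NFF and 6018 to 7069 RPKM in Control. Of the 9, Krt18, a keratin gene, fell by 1.05 in SFB against NFF (limma adjusted p = 0.0278), with means of 352 ± 50.6 RPKM in SFB and 757 ± 274 RPKM in NFF (SD, n = 4 each), beside 4.2% of tested genes called lower, and the other 8 were not called in any comparison. An earlier analysis of these data found SFB 2, SFB 4 and Control 2 farthest from their groups. Epcam stood between 489 and 670.4 RPKM in all libraries. Control 2 had 402 RPKM summed over 5 distal small intestine genes and 2802 RPKM over 5 proximal ones, the lowest and the highest of all libraries. SFB 2 had the lowest sum of Paneth cell markers, 429 RPKM, and SFB 4 the highest sum of dividing crypt cell markers, 268 RPKM. Sums of RPKM were 237248 to 302661 per library, and the depth in reads is unknown, so no counting interval can be given.

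Every gene of the class II set was highest on average in SFB, and NFF and Control overlapped in all 8. Ciita, on chromosome 16 (10480059 to 10528418, GRCm38), stood at 4.32, 4.38, 5.06 and 3.025 RPKM in SFB 1 to 4, at 1.13, 0.508, 2.28 and 1.18 RPKM in NFF 1 to 4, and at 0.886, 1.37 and 1.44 RPKM in Control 2, 4 and 5. All SFB libraries lay above all others, while NFF 2 fell below and NFF 3 above the whole Control range. Ciita was thus a low transcript in each group, with means of 4.198 ± 0.851 RPKM in SFB and 1.27 ± 0.739 in NFF (SD, n = 4 each), against 1.23 ± 0.302 in Control (SD, n = 3). Cd74, the invariant chain gene on chromosome 18 (60803848 to 60812652), was the most abundant of the set, at 559, 721, 435 and 454 RPKM in SFB, 142, 33.8, 352 and 121 RPKM in NFF and 119, 287 and 255 RPKM in Control. Its SFB libraries again did not overlap the others, though the gap between SFB 3 and NFF 3 was small against the spread in either group. Mean Cd74 was 542 ± 131 RPKM in SFB and 162 ± 135 in NFF (SD, n = 4 each), against 220.4 ± 89.7 in Control (SD, n = 3). In these bulk samples, fewer cells of a type and less RNA per cell cannot be told apart.

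The 3 chain genes lie together on chromosome 17. H2-Ab1 (34257689 to 34269419), the beta chain of I-A, stood at 139.9, 201, 98.1 and 99.3 RPKM in SFB, 35.8, 11.2, 87.4 and 37.8 RPKM in NFF and 35.2, 60.2 and 64.8 RPKM in Control. H2-Aa (34282744 to 34287823, minus strand), the I-A alpha chain, stood at 96.9, 155, 61.6 and 56.7 RPKM in SFB, 14.1, 3.12, 43.0 and 18.1 RPKM in NFF and 9.42, 24.3 and 36.5 RPKM in Control. In both genes every SFB library exceeded every other library, and SFB 2 was the highest. H2-Eb1 (34305867 to 34316674), the beta chain of I-E, stood at 82.7, 118, 51.2 and 61.1 RPKM in SFB, 18.4, 4.35, 53.2 and 13.7 RPKM in NFF and 17.4, 28.8 and 32.9 RPKM in Control. Here SFB 3 fell just under NFF 3, so SFB and NFF overlapped by that pair, while SFB and Control did not. Of the I-E alpha chain gene and the other class II genes listed (H2-Ea, H2-Ea-ps, H2-Eb2, H2-Oa and H2-Ob), 0 of 5 symbols were measured, so they were not analysed.

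The loading genes spanned a wider range of levels. H2-DMb1 (34153072 to 34160230) stood at 53.5, 78.3, 38.7 and 46.1 RPKM in SFB, 9.57, 3.40, 29.5 and 10.4 RPKM in NFF and 9.39, 20.6 and 24.5 RPKM in Control, with all SFB libraries above the rest. H2-DMa (34119541 to 34139101) stood at 17.8, 21.5, 10.1 and 14.7 RPKM in SFB, 5.17, 2.89, 10.5 and 5.20 RPKM in NFF and 4.74, 10.6 and 9.57 RPKM in Control. SFB 3 lay under NFF 3 and under Control 4 in H2-DMa, so the groups overlapped. H2-DMb2 (34143307 to 34151555), a second DM beta chain gene, stood at 3.11, 3.62, 5.67 and 1.74 RPKM in SFB, 1.39, 1.30, 2.05 and 1.32 RPKM in NFF and 1.78, 1.26 and 0.785 RPKM in Control. SFB 4 fell inside the range of NFF and of Control in H2-DMb2, and SFB 3, not SFB 2, was the highest. H2-DMb1 and H2-DMb2 are close copies: their GENCODE transcripts shared 369 stretches of 50 letters, 27.2% of the stretches of H2-DMb1 and 21.2% of those of H2-DMb2, so the authors' counting could have divided or dropped reads between them and both levels are uncertain. No other pair of the 8 shared a stretch of that length.

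**Figure D1:**
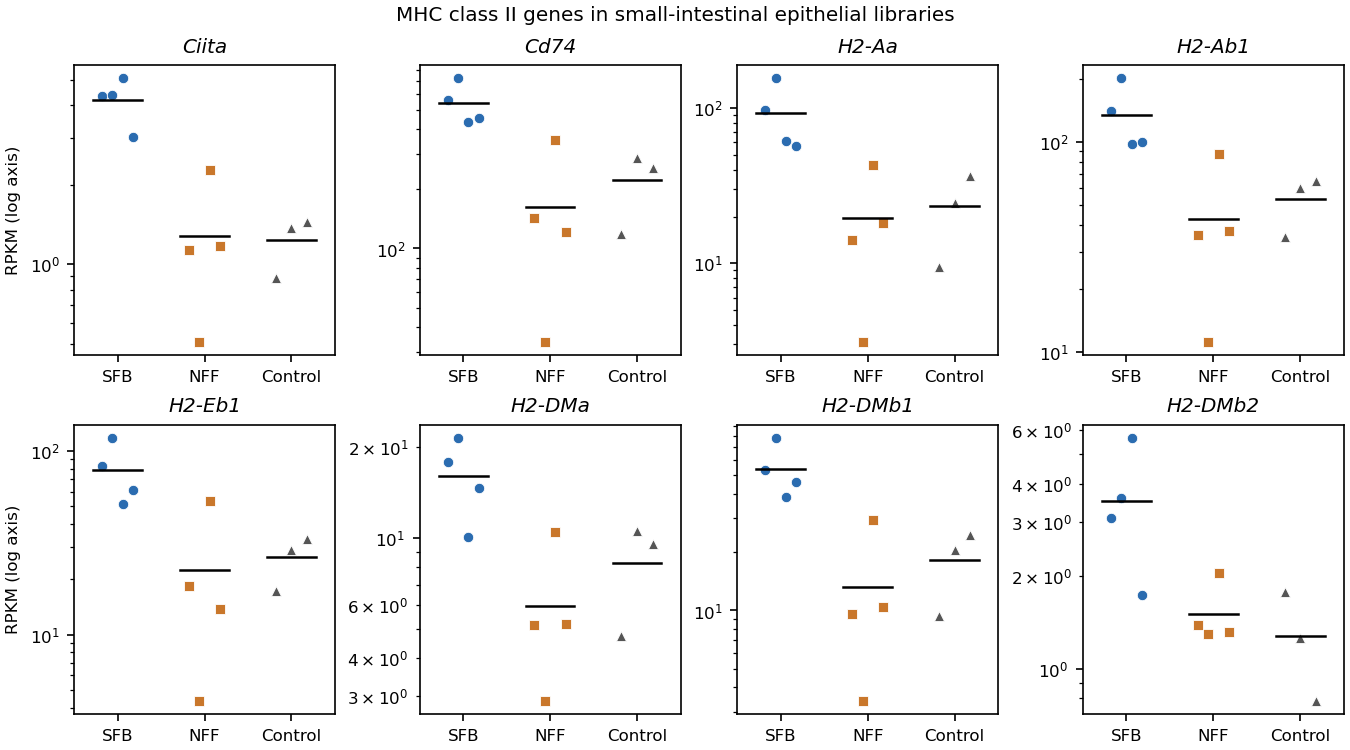
RPKM of the 8 genes on log axes, 1 panel per gene, with 1 point per library and a bar at the group mean for SFB (circles), NFF (squares) and Control (triangles). In Ciita, Cd74, H2-Aa, H2-Ab1 and H2-DMb1 all 4 SFB points lie above every other point, and the NFF points spread from NFF 2 at the bottom to NFF 3 at the top.

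The NFF libraries differed widely among themselves. NFF 3 was the highest NFF library in 8 of 8 genes and lay above every Control library in 7. NFF 2 was the lowest NFF library in 8 of 8 and lay below every Control library in 7. NFF 3 exceeded NFF 2 by 13.8-fold in H2-Aa, 12.2-fold in H2-Eb1, 10.4-fold in Cd74, 8.68-fold in H2-DMb1, 7.83-fold in H2-Ab1, 4.50-fold in Ciita, 3.63-fold in H2-DMa and 1.57-fold in H2-DMb2. The summed RPKM of the 8 genes was 705 to 1303 in SFB, 60.6 to 580.5 in NFF and 197 to 434 in Control. Control 2 was the lowest Control library in 7 of 8 genes.

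The comparison of SFB with NFF, in which colonization and diet both differ, gave calls for most of the set. Ciita, Cd74, the 3 chain genes, H2-DMa and H2-DMb1 rose, 7 of 8 genes, against a background of 3.14% of the 10482 tested genes called higher and 7.34% called in either direction (limma on log2(RPKM + 1), Benjamini-Hochberg adjusted p under 0.05 over all genes). The median log2 fold change of the 8 was 2.01, beside 0.02 over all genes. Groups did not overlap in 5 of 8, beside 10.1% of tested genes that were higher without overlap. H2-Aa rose most, with an SFB mean 4.73 times the NFF mean (92.6 ± 45.4 RPKM in SFB and 19.6 ± 16.9 RPKM in NFF, SD, n = 4 each) and a log2 difference of 2.51 with a standard error of 0.63 (limma adjusted p = 0.0354). H2-DMb1 rose by 2.24 ± 0.49 (adjusted p = 0.0206), with means of 54.1 ± 17.2 RPKM in SFB and 13.2 ± 11.3 RPKM in NFF. H2-Eb1 rose by 2.15 (adjusted p = 0.0375), Cd74 by 2.14 (0.0399), H2-Ab1 by 1.88 (0.0386) and H2-DMa by 1.36 (0.0317). Ciita rose by 1.23 ± 0.22, with a 95% interval of 0.76 to 1.70 and the lowest adjusted p of the set, 0.0073. The log2(RPKM + 1) scale understates the change of low genes: the SFB mean of Ciita was 3.30 times the NFF mean, close to the 3.34 times of Cd74. H2-DMb2 was not called, at 0.79 ± 0.24 with a 95% interval of 0.27 to 1.31 (adjusted p = 0.0674).

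Most of these calls rested on the full set of libraries. Ciita was called with any single library left out. Without NFF 2 or without NFF 4 it was the only gene of the 8 called, and without NFF 1, SFB 1 or SFB 2 it was called with H2-DMb1 alone. Without SFB 3, 3 genes were called (Ciita, H2-DMa and H2-DMb1), and without Control 5, a library of neither group that adds to the shared spread, 4 were called (these and H2-Aa). Without SFB 4 the call of Cd74 was lost (2.21, limma adjusted p = 0.0536) and H2-DMb2 was called (1.01, adjusted p = 0.0152). The other lost calls had adjusted p between 0.0512 and 0.104. Without the 3 libraries that stood apart, 2 genes were called, Ciita (1.38, adjusted p = 0.0140) and H2-DMb2 (1.07, adjusted p = 0.0191). The median log2 fold change stayed positive throughout, from 1.45 without NFF 2 to 2.49 without NFF 3.

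The comparison of SFB with Control, both fed standard chow, asks what differed with colonization. No gene of the set was called over all genes by limma, beside 0.2% of tested genes called in either direction and 0.124% called higher. At an unadjusted p under 0.05 all 8 were higher, beside 12.1% of tested genes in either direction. The median log2 fold change was 1.33, beside 0.01 over all genes, and SFB and Control did not overlap in 6 of 8 genes, all but H2-DMa and H2-DMb2, beside 3.66% of tested genes that were higher without overlap. Ciita came nearest to the threshold, with an SFB mean 3.41 times the Control mean, a log2 fold change of 1.21 ± 0.23, a 95% interval of 0.70 to 1.72 and a limma adjusted p of 0.0575. H2-Aa had the widest difference, 2.01 ± 0.68 with an interval of 0.52 to 3.49 (adjusted p = 0.263), from means of 92.6 ± 45.4 RPKM in SFB (SD, n = 4) and 23.4 ± 13.6 RPKM in Control (SD, n = 3). Differences were 1.57 for H2-DMb1, 1.51 for H2-Eb1, 1.36 for Cd74, 1.30 for H2-Ab1, 0.95 for H2-DMb2 and 0.89 for H2-DMa, with adjusted p between 0.162 and 0.395. Ciita was called without NFF 3 (1.21, adjusted p = 0.0461) and, with H2-DMb2 (1.16, adjusted p = 0.0349), without SFB 4 (1.33, adjusted p = 0.0308). H2-DMb2 alone was called without the 3 libraries that stood apart (1.38, adjusted p = 0.0410).

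NFF against Control sets the low-fiber diet beside standard chow and so concerns dietary fermentable fiber, which the series title ties to antigen presentation. No gene of the set was called by limma, and 0 of 8 had an unadjusted p under 0.05, beside 0% of tested genes called and 4.82% at that unadjusted p. The groups overlapped in all 8 genes, beside 5.35% of tested genes higher and 4.42% lower without overlap. Ciita differed by -0.02 with a 95% interval of -0.53 to 0.49. Cd74 differed by -0.77 (interval -2.09 to 0.54), H2-DMb1 by -0.67, H2-Eb1 by -0.64, H2-Ab1 by -0.58, H2-Aa by -0.50 and H2-DMa by -0.47, while H2-DMb2 differed by 0.16. The intervals allow changes in either direction and do not show that the diets gave alike levels. That of H2-DMb2 (-0.41 to 0.72) reached further above 0 than below it. The interval of Ciita reached about equally far each way, and those of the other genes further below 0. The median of -0.54, beside -0.01 over all genes, was -0.08 without NFF 2 and -1.02 without NFF 3. Without NFF 2 the values of Ciita (0.16) and H2-Aa (0.12) turned above 0. The comparisons share libraries, SFB in 2 of them, NFF in 2 and Control in 2, so they are not independent of each other.

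**Figure D2:**
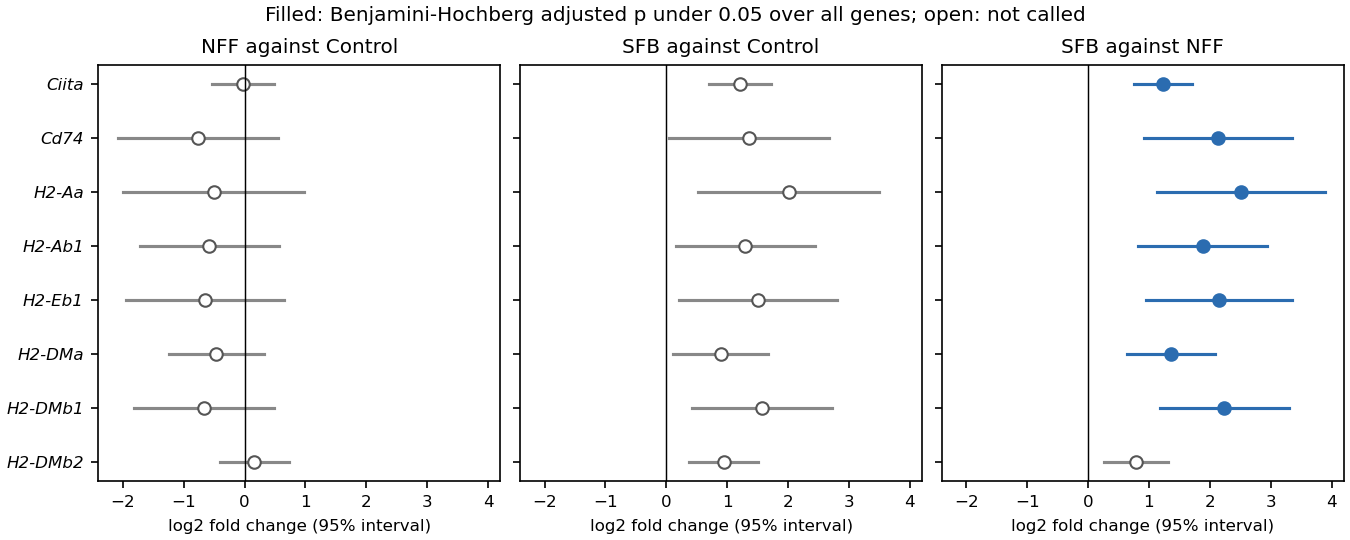
log2 fold changes on the log2(RPKM + 1) scale with their 95% intervals for the 8 genes in NFF against Control, SFB against Control and SFB against NFF. Filled points, adjusted p under 0.05 over all genes, stand for 7 genes in SFB against NFF and for none in the other panels, where the intervals of SFB against Control all lie above 0.

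Over the 11 libraries, the chain and loading genes other than H2-DMb2 varied together with both Cd74 and Ciita. Within groups, the relation to Ciita missed the threshold for H2-Eb1 and H2-DMa. Relations were computed on log2(RPKM + 1) over 11 libraries for 13 pairs, and because the SFB libraries stood high as a group, each was also computed on deviations from the group means. With Cd74, Pearson's r was 0.990 for H2-Ab1, 0.988 for H2-Eb1, 0.984 for H2-DMb1, 0.973 for H2-Aa and 0.963 for H2-DMa, and Spearman's rho was 0.955 to 0.982 for these 5 (permutation test, adjusted p = 2.17e-05 for each r, from the smallest p that 100000 pairings can give, and at most 6.5e-05 for each rho). After centring, r was 0.979 for H2-Ab1, 0.974 for H2-Eb1, 0.972 for H2-DMb1, 0.954 for H2-Aa and 0.912 for H2-DMa (exact permutation within groups, adjusted p = 0.0056 to 0.0060). Without the 2 libraries farthest from the median of Cd74, NFF 2 and SFB 2, r was 0.952 to 0.986 for the same genes. Deviations from the group means in Cd74 thus went with deviations in these 5 genes. The order of single libraries was not always kept. Control 4 exceeded Control 5 in Cd74 (287 and 255 RPKM) but not in H2-Aa (24.3 and 36.5 RPKM).

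With Ciita, r was 0.924 for H2-Aa, 0.920 for H2-DMb1, 0.904 for H2-Ab1, 0.899 for H2-Eb1, 0.893 for Cd74 and 0.860 for H2-DMa, with rho of 0.827 to 0.973 (permutation test, adjusted p at most 0.00117 for r and 0.0032 for rho). Centred r was 0.868 for Cd74, 0.858 for H2-Ab1, 0.852 for H2-Aa and 0.839 for H2-DMb1, with adjusted p of 0.0408 to 0.0414 by the exact permutation test. It was 0.833 for H2-Eb1 (adjusted p = 0.0504) and 0.698 for H2-DMa (adjusted p = 0.068), which missed the threshold. SFB 3 was the highest library in Ciita and the lowest or next to lowest of SFB in the 3 chain genes. Without SFB 2 and SFB 3, the libraries farthest from the median of Ciita, r was 0.903 to 0.944. Among single libraries left out, SFB 3 gave the highest r with Ciita for each of these genes. Without NFF 3, centred r fell to 0.463 for H2-DMa, 0.650 for H2-Eb1, 0.674 for H2-DMb1, 0.732 for H2-Ab1 and 0.747 for Cd74. For H2-Aa it was lowest without NFF 2, at 0.728. Values of r were lower with Ciita than with Cd74 for each of the 5 chain and loading genes other than H2-DMb2, a difference that was not tested, and Ciita stood at 0.508 to 2.28 RPKM in the NFF and Control libraries.

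Within the 7 NFF and Control libraries alone, a set chosen after the data were seen, r with Ciita was 0.887 to 0.948 and with Cd74 0.959 to 0.991 for the same genes (exact permutation test, adjusted p = 0.0039 to 0.0056). H2-Aa, H2-Ab1 and H2-DMb1 had the same order of libraries as Ciita there, a rho of 1. H2-DMb2 gave no relation that passed there: its r was 0.221 with Ciita and 0.055 with Cd74 in these 7 libraries (adjusted p = 0.711 and 0.904). Over all 11 libraries H2-DMb2 had r of 0.832 and rho of 0.673 with Ciita (adjusted p = 0.0011 and 0.0307) and r of 0.571 and rho of 0.618 with Cd74 (adjusted p = 0.0689 and 0.0478, permutation test). Centred, these were 0.490 and 0.107 (adjusted p = 0.084 and 0.644, exact permutation test). Without SFB 2 and SFB 3 its r with Ciita was 0.687. In all, 12 of 13 pairs passed by r over the 11 libraries and 9 of 13 after centring. After centring, 5 pairs passed when any NFF library, SFB 1, SFB 4, Control 4 or Control 5 was left out, 6 without Control 2, and 0 passed without Control 2, SFB 2 and SFB 4, where centred r was nevertheless 0.808 to 0.989 outside H2-DMb2.

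**Figure D3:**
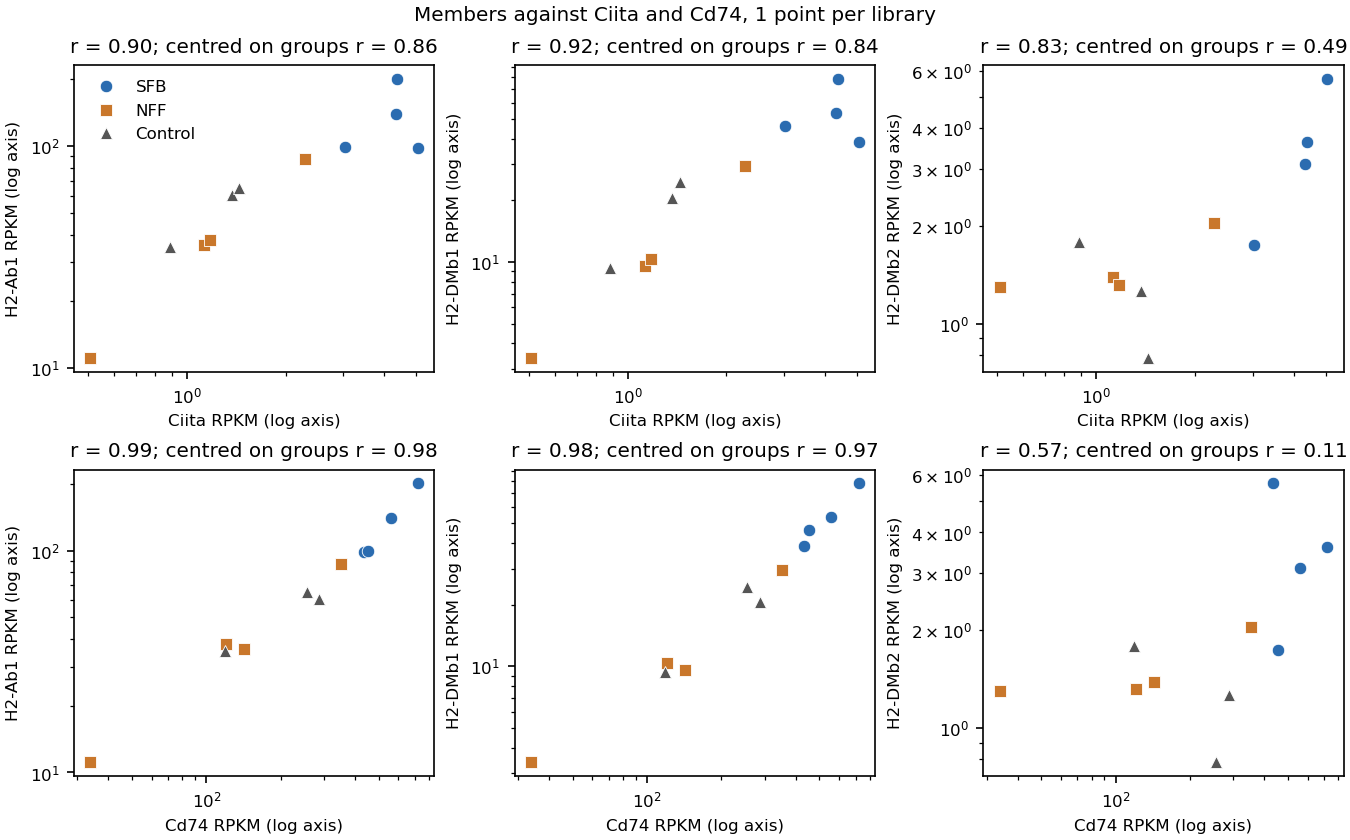
H2-Ab1, H2-DMb1 and H2-DMb2 against Ciita (upper row) and Cd74 (lower row), RPKM on log axes with 1 point per library for SFB (circles), NFF (squares) and Control (triangles). Above each panel stand Pearson's r on log2(RPKM + 1) and r of the deviations from group means: H2-Ab1 and H2-DMb1 lie along a line with Cd74 (r = 0.99 and 0.98), whereas H2-DMb2 scatters (r = 0.57).

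Set against Cd74 in the same library, the chain genes kept a narrow proportion while levels varied widely. H2-Ab1 amounted to 21.9% to 27.8% of Cd74 RPKM in SFB, 24.8% to 33.0% in NFF and 21.0% to 29.7% in Control. Its log2 ratio to Cd74 thus spanned 0.65 over all libraries, while its log2 RPKM spanned 4.17. H2-Eb1 amounted to 10.0% to 16.3% and H2-DMb1 to 6.71% to 10.8% of Cd74 over all libraries. H2-Aa was less constant, with 16.4% ± 3.97 in SFB and 11.6% ± 2.61 in NFF (SD, n = 4 each), against 10.2% ± 3.53 in Control (SD, n = 3). H2-DMa ranged from 2.32% in SFB 3 to 8.54% in NFF 2, and H2-DMb2 from 0.307% in Control 5 to 3.85% in NFF 2. Ciita stood at 0.607% to 1.16% of Cd74 in SFB, 0.648% to 1.501% in NFF and 0.476% to 0.747% in Control. NFF 2, with the least Cd74, had the highest percentage of H2-Ab1, H2-DMa, H2-DMb2 and Ciita.

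The proportion between partner genes of a heterodimer varied between libraries. H2-Aa amounted to 57.1% to 77.4% of H2-Ab1 in SFB, 27.97% to 49.3% in NFF and 26.8% to 56.3% in Control, so that SFB lay above both, narrowly so against Control 5. H2-DMa amounted to 26.1% to 33.3% of H2-DMb1 in SFB, 35.5% to 84.9% in NFF and 39.0% to 51.3% in Control, with SFB below both. H2-DMb2 amounted to 3.78% to 14.6% of H2-DMb1 in SFB, 6.93% to 38.2% in NFF and 3.20% to 19.0% in Control, with overlap throughout. These proportions were not tested, and those of the DM beta chains carry the uncertainty from shared sequence.

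**Figure D4:**
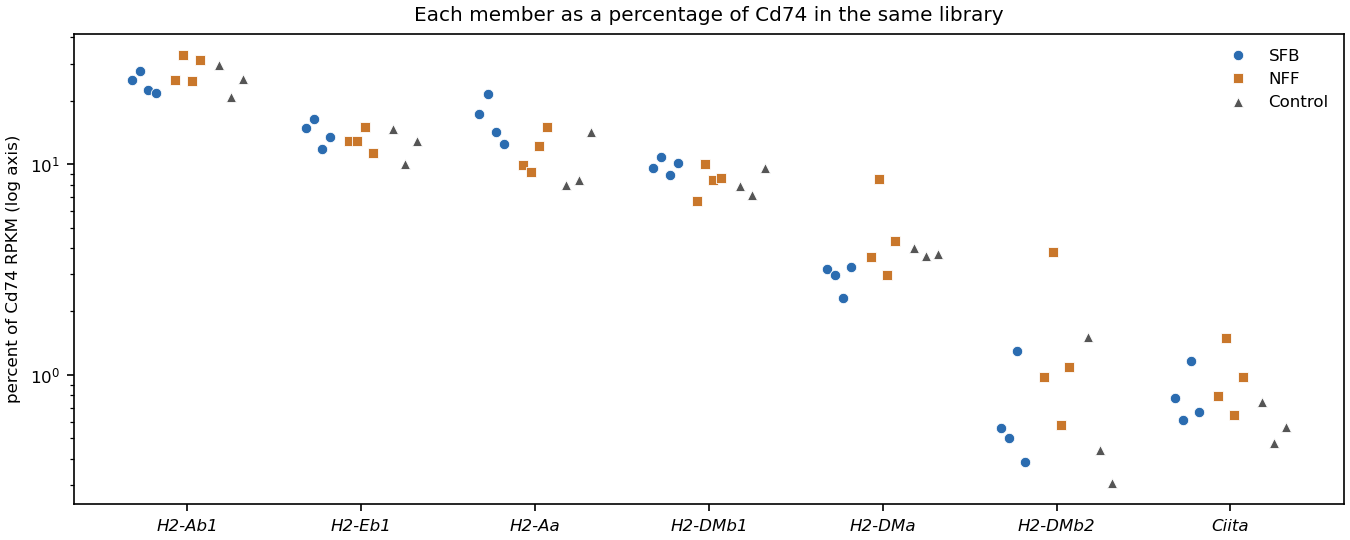
RPKM of each gene as a percentage of Cd74 RPKM in the same library, on a log axis, with 1 point per library for SFB (circles), NFF (squares) and Control (triangles) beside each other. H2-Ab1 stays between 21.0% and 33.0%, whereas H2-DMb2 runs from 0.307% to 3.85%.

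Other genes of the pathway were described from lists chosen with earlier results of these data known. Of the class II enhanceosome and its cofactors, 11 were measured, 9 were tested and none was called in any comparison by limma, with 0 at an unadjusted p under 0.05, beside 25.7% of tested genes in SFB against NFF, 12.1% in SFB against Control and 4.82% in NFF against Control. Rfx5, the RFX subunit gene, stood at 0.498 ± 0.103 RPKM in SFB, 0.432 ± 0.084 in NFF and 0.401 ± 0.020 in Control and was not tested for its low level, like Nfya. Rfxap, another RFX subunit gene, differed by -0.32 in SFB against Control and by -0.28 in SFB against NFF, and Rfxank, the third, by -0.24 and -0.25. A difference that misses the threshold does not show that these factors stood at equal levels.

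Of 9 tested genes that carry interferon gamma signals to the Ciita promoter, 3 rose in SFB against NFF, beside 3.14% of tested genes called higher. In SFB against Control 1 of the 9 rose, beside 0.124% called higher. No gene of this list was called in NFF against Control, beside 0% of tested genes. Irf1 and Socs1 were among the 3 that rose against NFF. Irf1, an interferon-induced transcription factor, rose by 0.81 against NFF (limma adjusted p = 0.0017), with means of 70.8 ± 5.77 RPKM in SFB and 39.98 ± 1.26 RPKM in NFF (SD, n = 4 each). Socs1, a feedback inhibitor of this signalling, rose by 1.10 (adjusted p = 0.0030), with means of 3.51 ± 0.959 RPKM in SFB and 1.08 ± 0.204 RPKM in NFF. Against Control, Irf1 (0.50, adjusted p = 0.0852) and Socs1 (0.88, adjusted p = 0.0681) were not called. The receptor genes Ifngr1 and Ifngr2 and the kinase genes Jak1 and Jak2 were not called in any comparison. Within NFF, Irf1 spanned 38.9 to 41.3 RPKM, with 38.9 RPKM in NFF 3, the NFF library highest in all 8 class II genes. The part of these signals in the class II levels was not tested.

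Downstream of assembly, calls in SFB against NFF differed between the lists. Of 9 genes of invariant chain cleavage and antigen processing, 1 rose in SFB against NFF (beside 3.14% of all tested genes called higher) and none was called in the other comparisons (beside 0.2% of tested genes in SFB against Control and 0% in NFF against Control). It was Sppl2a, the intramembrane protease that clears the last invariant chain fragment from the membrane, at 22.6 ± 1.23 RPKM in SFB and 14.8 ± 1.39 RPKM in NFF (SD, n = 4 each; 0.58, limma adjusted p = 0.0061). Ctss, the protease that trims the invariant chain, was not called, at 78.9 ± 19.0 RPKM in SFB, 63.6 ± 7.24 in NFF and 66.7 ± 10.4 in Control. Of 2 tested genes of class II surface turnover, 1 fell in SFB against NFF, beside 4.2% of tested genes called lower. It was Cd83, which stabilizes class II at the surface in other cell types, by 0.93 (limma adjusted p = 0.0113). Its means were 0.413 ± 0.299 RPKM in SFB and 1.66 ± 0.318 RPKM in NFF. Of the Cd74 ligands and coreceptors, 2 of 3 tested rose in SFB against NFF, beside the same 3.14%: Mif, a cytokine that binds CD74, by 1.14 (adjusted p = 0.0215) and Cd44, whose product was sorted against, by 0.80 (adjusted p = 0.0125). Of 3 tested costimulation and checkpoint genes 1 rose, again beside 3.14%, namely Cd274, which encodes PD-L1, at 3.36 ± 1.88 RPKM in SFB and 0.471 ± 0.253 RPKM in NFF (1.47, adjusted p = 0.0186).

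Markers of professional antigen-presenting cells, which carry class II at high levels, were few in the table. Of 6 leukocyte markers 2 were measured, and their sum was 1.16 to 8.58 RPKM in SFB, 12.7 to 27.0 RPKM in NFF and 10.4 to 21.2 RPKM in Control, with SFB below both and no overlap. Rac2, which made up most of it, fell by 2.02 in SFB against NFF (limma adjusted p = 0.0122), beside 4.2% of tested genes called lower. Ptprc, which encodes CD45, stood at 0.247 to 1.35 RPKM in SFB, 1.40 to 2.48 RPKM in NFF and 0.751 to 2.25 RPKM in Control, and NFF 3, highest of NFF in class II, was the lowest of NFF in it. Of 7 B cell markers only Ms4a1 was measured, at 1.23 ± 0.82 RPKM in SFB and 0.603 ± 0.172 in NFF (SD, n = 4 each), against 0.458 ± 0.192 in Control (SD, n = 3). Of 20 dendritic cell and macrophage markers 4 were measured, with sums of 62.6 to 75.4 RPKM in SFB, 46.8 to 66.6 RPKM in NFF and 60.0 to 86.9 RPKM in Control. Within NFF this sum was highest in NFF 3, as were Lyz2 (29.4 RPKM) and Mertk (16.1 RPKM). Of the 4 markers, 2 rose in SFB against NFF, beside 3.14% of tested genes called higher. Irf8, an interferon-inducible factor that epithelial cells can also express, rose by 1.15 (limma adjusted p = 0.0014). Itgam, an integrin gene of myeloid cells, rose by 1.41 (limma adjusted p = 0.0189), while Lyz2 and Mertk were not called. Irf8 was highest in SFB 2, at 42.9 RPKM, the highest library in 6 of 8 class II genes, and Itgam in SFB 4, at 12.7 RPKM, the highest in none. Of 15 T cell markers only Itgae was measured, at 0.867 to 3.21 RPKM in SFB, 0.834 to 1.38 RPKM in NFF and 0.585 to 0.923 RPKM in Control. Cd79a, Itgax, Csf1r and Cd3e were not among the measured markers of their lists and so were not analysed. No measured marker of these lists was listed at 0, and the part of such cells in the class II levels was not tested.

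Markers of other epithelial lineages also differed between the groups. Tuft cell markers (8 measured of 11) summed to 7.72 to 35.8 RPKM in SFB, 77.5 to 137 RPKM in NFF and 49.1 to 95.8 RPKM in Control, and 8 of 8 fell in SFB against NFF (beside 4.2% of tested genes called lower). Dividing crypt cell markers (8 measured of 9) summed to 59.0 to 268 RPKM in SFB, 20.5 to 35.6 RPKM in NFF and 33.3 to 114 RPKM in Control, and 3 of 8 rose in SFB against NFF (beside 3.14% of tested genes called higher). Paneth cell markers summed to 429 to 15907 RPKM in SFB, 13776 to 21808 RPKM in NFF and 16007 to 31176 RPKM in Control. Within NFF, NFF 3 had the lowest tuft sum and the highest dividing and Paneth sums. The part of these shifts in the class II result was not tested.

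Genes outside the set with the profile most like Ciita were ranked among 7602 others with a mean of at least 3 RPKM. Over the 11 libraries the 6 highest Pearson r on log2(RPKM + 1) were 0.917 for Resf1, 0.906 for Rab8b, 0.902 for Stom, 0.899 for Apaf1, 0.891 for Zfp97 and 0.890 for Ceacam2. H2-Aa and H2-DMb1 stood above all 7602, H2-Ab1 at rank 3, Cd74 and H2-Eb1 at rank 5, H2-DMa at rank 24 and H2-DMb2 at rank 47. On deviations from group means the nearest others were Nr1i2 (0.777), Pi4k2a (0.774), Brpf3 (0.766), 1110019D14Rik (0.733), Resf1 (0.726) and Tnfaip8l2 (0.708). On that scale Cd74, H2-Aa, H2-Ab1, H2-Eb1 and H2-DMb1 had r with Ciita above every one of the 7602, H2-DMa stood at rank 9 and H2-DMb2 at rank 147. With the mean of the 8 genes, the nearest over all libraries were Rab8b (0.932), B3glct (0.919), Batf2 (0.905), Duoxa2 (0.897), Lrrc1 (0.885) and Parp9 (0.875), and after centring Rab8b (0.855), Nr1i2 (0.813), Duoxa2 (0.790), B3glct (0.759), Insig2 (0.743) and Ctss (0.738). These values describe likeness over shared libraries and carry no test.

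Some of the annotated spans overlap other genes, and the library kit does not mark strand, so reads of overlapping parts cannot be told apart. Ciita overlaps Dexi on the other strand, which stood at 2.79 to 3.25 RPKM in SFB, 3.22 to 3.78 RPKM in NFF and 2.80 to 3.48 RPKM in Control, with SFB not above the others. H2-DMa overlaps Brd2, at 6.47 to 11.2 RPKM in SFB, 8.82 to 9.09 RPKM in NFF and 8.11 to 9.32 RPKM in Control. H2-Eb1 overlaps the annotated antisense gene Gm20513.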

How the data were processed

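The authors deposited 1 table of RPKM values per the file headers, with 1 column per library and 11366 genes. STAR and mm10 are named per the submitters' processing notes. The sources used here give no counter, annotation, gene lengths or detection rule. Low values did not resolve into whole reads, so depth is unknown and no count model was used. Entrez identifiers matched RefSeq for 11360 genes, and 15 symbols stored as dates were restored.

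Genes with at least 1 RPKM in at least 3 libraries were fitted (10482, with 884 left out) as log2(RPKM + 1) in limma 3.58.1 (R 4.3.3), with 1 mean per group over all 11 libraries, eBayes with trend and Benjamini-Hochberg adjustment. Correlations used 100000 random pairings, or all within-group arrangements. Scripts were tested on simulated data. Coordinates came from GENCODE M21 and promoters from RefSeq, both of GRCm38.

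Members and lists were chosen with earlier results of these data known. Named were all 8 genes, the 6 most alike on each scale, up to 4 called genes of each list (or 2 of lowest p), and defining markers. Krt18, Rac2, Itgam, Irf8, Dexi and Brd2 were named for a call or an overlap, after their values were seen. Alternatives were other pseudocounts, filters, scalings and eBayes settings, array weights, fewer groups, a replicate block and left-out libraries. The relations within NFF and Control alone were added after seeing the data. The main fit did not pair the samples by replicate number, and whether the numbers pair them is unknown. Values of some listed genes are not reported here.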

Additional observations from a re-analysis of the deposited data

Results flagged for a closer look

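H2-DMb2 in NFF 3, at 2.05 RPKM, stood apart from the other NFF libraries at 1.30 to 1.39 RPKM. Its gap to the nearest, 0.884 of the group's range, exceeded Dixon's 95% critical value for 4 samples. It was 1 of 16 sets of 4 libraries examined, of which chance would pick out about 1 in 20. Control, with 3 libraries, was not examined.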

How the results depend on the processing

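In SFB against NFF, Ciita kept its call in all 22 alternatives. The number of genes called was 1 to 7 when a library was left out, 2 without Control 2, SFB 2 and SFB 4, and 1 with a replicate block. It was 8 with array weights, a setting that called 4720 of all 10482 tested genes. In SFB against Control it was 0 to 2 when a library was left out, 2 with array weights, whose estimate did not converge (a weight of 22.1 for SFB 1, 0.152 to 2.49 for the others), and 1 without Control 2, SFB 2 and SFB 4. Pairs that passed after centring numbered 5 to 11 when a library was left out and 0 without those 3 libraries. In NFF against Control, no alternative called a gene, and values around 0 turned sign. Ciita stood at 8.32e-04 with a pseudocount of 3, and between -0.21 and 0.16 when a library was left out, above 0 without NFF 2, Control 4 or Control 5. H2-Aa stood between -1.03 and 0.12, above 0 without NFF 2. H2-DMb2 stood at -0.20 with the replicate block and between -0.0077 and 0.31, below 0 without Control 5. Centred r of H2-DMb2 with Cd74 was between -0.147, without NFF 3, and 0.274 when a single library was left out, and 0.352 without SFB 2, SFB 4 and Control 2. The causes were not tested. Among single fold changes, 465 alternatives kept their direction and side of the threshold, 47 lost and 9 gained a call and 7 turned. Among correlations the numbers were 384, 46, 11 and 1. Of 8 same-numbered pairs, 2 deviated together with a correlation over 0.1 (-0.301 to 0.668). Without values of differently numbered pairs beside them, these cannot show whether the numbers pair the libraries. With the block, the 6 lost calls of SFB against NFF had adjusted p of 0.0533 to 0.087. Unknown depth limits Ciita and H2-DMb2 most.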
